A study of Mus musculus with 28 samples.

Results

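Age was compared in single Prom1+ neural stem cells of the mouse forebrain, 3 cells of 1 month against 3 cells of 24 months, out of 22 single cells in the series. The genes described are those with more than 1 FPKM (fragments per kilobase of transcript, scaled to all mapped fragments of a cell, so that levels can be compared between genes of different length) in 3 or more of these 6 cells. This left 6627 of the 37974 genes listed. Of the genes listed, 14966 were above 0 in any of the 6 cells.

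Cells were taken from the striatal side of the lateral ventricle wall (the ependymal zone with the subependymal or subventricular zone) of C57BL/6 mice, which carried no transgene or other treatment named in the labels. The tissue was dissociated with papain, a size and complexity gate (P1) was sorted, single cells were picked by hand, and cDNA was prepared with Smart-seq2, a protocol that covers full-length transcripts without molecular identifiers. The study kept cells whose cDNA gave a PCR signal for marker genes, among them *Prom1*, *Dlx2*, *Dcx* and *Gfap*, and named subpopulations after clustering all 22 cells by their RNA, so the presence of *Prom1* is no result. The series also holds Gfap+ and Dlx2+/Dcx+ cells of the same ages and 6 tissue samples, 3 of 3 weeks and 3 of 18 months. The labels do not tie a cell to an animal, and the 3 cells of an age were therefore taken as 1 sample. No test was made on them, and every value below describes these 6 cells.

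Adult neural stem cells line the lateral ventricle. Quiescent cells leave rest in response to growth factors such as EGF, which act through receptor tyrosine kinases, Ras and the ERK kinases, and activated cells then divide and give neuroblasts that travel to the olfactory bulb. Prominin 1 (CD133) is a membrane protein of apical processes, and together with the EGF receptor it is used to mark activated stem cells. The nuclear receptor Nr2e1 (Tlx) is needed to keep adult stem cells dividing.

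The oligonucleotides used in the study to amplify *Prom1*, the gene that names these cells, and *Mapk3*, the ERK gene described below, are given here in lower case, since none of them crosses an exon junction.
Prom1 forward: tacagaatataagagccatccacc
Prom1 probe: ccctccagcaaacaagcaacaagt
Prom1 reverse: acagagtccaaagaggcaag
Mapk3 forward: acaagcgcatcacagtagag
Mapk3 probe: ctgttccaggtaagggtgagcca
Mapk3 reverse: aagatcaactccttcagccg
Matched to the GENCODE transcripts of GRCm38, the *Prom1* forward primer lies in exon 16 of 22 of transcript Prom1-201 (chr5:44012908-44012931, minus strand), the probe in exon 17 (chr5:44011200-44011223) and the reverse primer in exon 18 (chr5:44007066-44007085). All are in coding sequence, and the probe and reverse primer match 10 of the 19 annotated *Prom1* transcripts. The *Mapk3* oligonucleotides lie in exon 7 of transcript Mapk3-201 on the plus strand, the forward primer at chr7:126764573-126764592, the probe at chr7:126764600-126764622 and the reverse primer at chr7:126764780-126764799. The forward primer and the probe are in coding sequence, whereas the reverse primer is not wholly coding. The *Mapk3* probe also matches the transcript of *Gm5675*, so reads from this stretch could be shared between the genes.

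The table of cells holds no fragment counts. From the step between low values of single-transcript genes, 1 FPKM was estimated to stand for 2.99 to 6.68 fragments per kilobase of transcript, depending on the cell, with both extremes at 24 months. The number of genes above 1 FPKM was 6054 to 6485 per cell at 1 month and 5924 to 6626 at 24 months. The mitochondrial transfer RNA gene *mt-Ts1* was the most abundant in each cell, with 11.1% to 30.2% of its summed FPKM. A listed 0 is not evidence of absence, since *Actb*, the gene of beta-actin, was at 0 in all 6 Prom1+ cells and between 10899.8 and 29739.5 FPKM in the other 16 cells. The X-linked *Xist* ranged from 13.8 to 55.6 FPKM in the 6 cells and the Y-linked *Ddx3y* and *Kdm5d* were at 0, so these genes do not set the ages apart. Across the 6627 genes, Pearson's r of log2(FPKM + 1) between cells, which share no library, was 0.41 to 0.45 for the 3 pairs of 1 month, 0.37 to 0.42 for the 3 pairs of 24 months and 0.37 to 0.43 for the 9 pairs between ages. Cells of an age were thus about as unlike each other as cells of different ages.

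Since the subpopulations were named from the same RNA, by genes such as *Egfr* and *Mki67*, none of the marker levels is an independent check of the label. *Prom1* (chromosome 5 of GRCm38, 43993620 to 44102032) was at 25.1, 13.97 and 30.9 FPKM in cells 1, 2 and 3 of 1 month and at 20.2, 56.6 and 1.49 in cells 1, 2 and 3 of 24 months. *Egfr* was at 125, 208 and 441 FPKM at 1 month and at 374, 22.3 and 93.1 at 24 months. The proliferation marker *Mki67* was at 45.1, 76.9 and 179 FPKM at 1 month and at 103, 52.4 and 135 at 24 months. These 3 genes overlapped between the ages, and all 6 cells held transcripts of all 3. *Fabp7*, a fatty acid binding protein of radial glia and stem cells, was between 165 and 1901 FPKM.

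Many defining genes of other cell types were listed at 0, which in this table does not show that they were absent. *Gfap* (astrocyte), *Foxj1* and *Tmem212* (ependymal cell), *Sox10* and *Pdgfra* (oligodendrocyte lineage), *Syt1* (neuron), *P2ry12*, *Csf1r* and *Tyrobp* (microglia) and *Cldn5* and *Pecam1* (vessel) were listed at 0 in all 6 cells. Of the 15 ependymal markers 11 were at 0 throughout and none was a member of the 6627 genes, and the same held for 12 of 15 microglial and 9 of 14 vessel markers. The neuroblast genes *Dlx2* and *Dcx* reached at most 1.74 and 0.362 FPKM. Of the 22 markers shared by quiescent stem cells and astrocytes 11 were members, with none past the limits given below. Without the 24-month cell 2, 4 of 11 members were past them, all higher at 24 months. The summed level of the 22 markers was 649, 5215 and 3503 FPKM at 1 month and 2566, 801 and 4614 at 24 months.

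Single cells carried single genes of other types, and the neuronal gene *Snap25* was at 29.1, 38.7 and 0 FPKM at 1 month and at 0.175, 57.7 and 0.0651 at 24 months. The 1-month cell 1 held 256 FPKM of *Cd24a*, 92.8 of *Mbp* and 37.9 of *Mog*, both myelin genes. The 24-month cell 1 held 31.1 FPKM of *Olig1* and 28.3 of *Olig2*, transcription factors of oligodendroglia. The 24-month cell 2 held 27.8 FPKM of the neuronal gene *Rbfox3*, and the 24-month cell 3 held 67.4 FPKM of the astrocyte water channel gene *Aqp4*. The summed level of the 15 oligodendrocyte lineage markers was 49.2 to 280 FPKM at 1 month and 22.5 to 91.9 at 24 months, and that of the 15 neuronal markers was 165 to 240 and 113 to 317. The 15 neuroblast markers summed to 19.9 to 431 FPKM at 1 month and 6.47 to 46.3 at 24 months, and the 15 ependymal markers to 0.273 to 256 and 0.154 to 16.6. The ependymal sum of 256 came almost wholly from *Cd24a* in the 1-month cell 1, a gene that the study names for its neuroblasts. The part of genes of other cell types in the differences below was not tested.

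**Figure D1:**
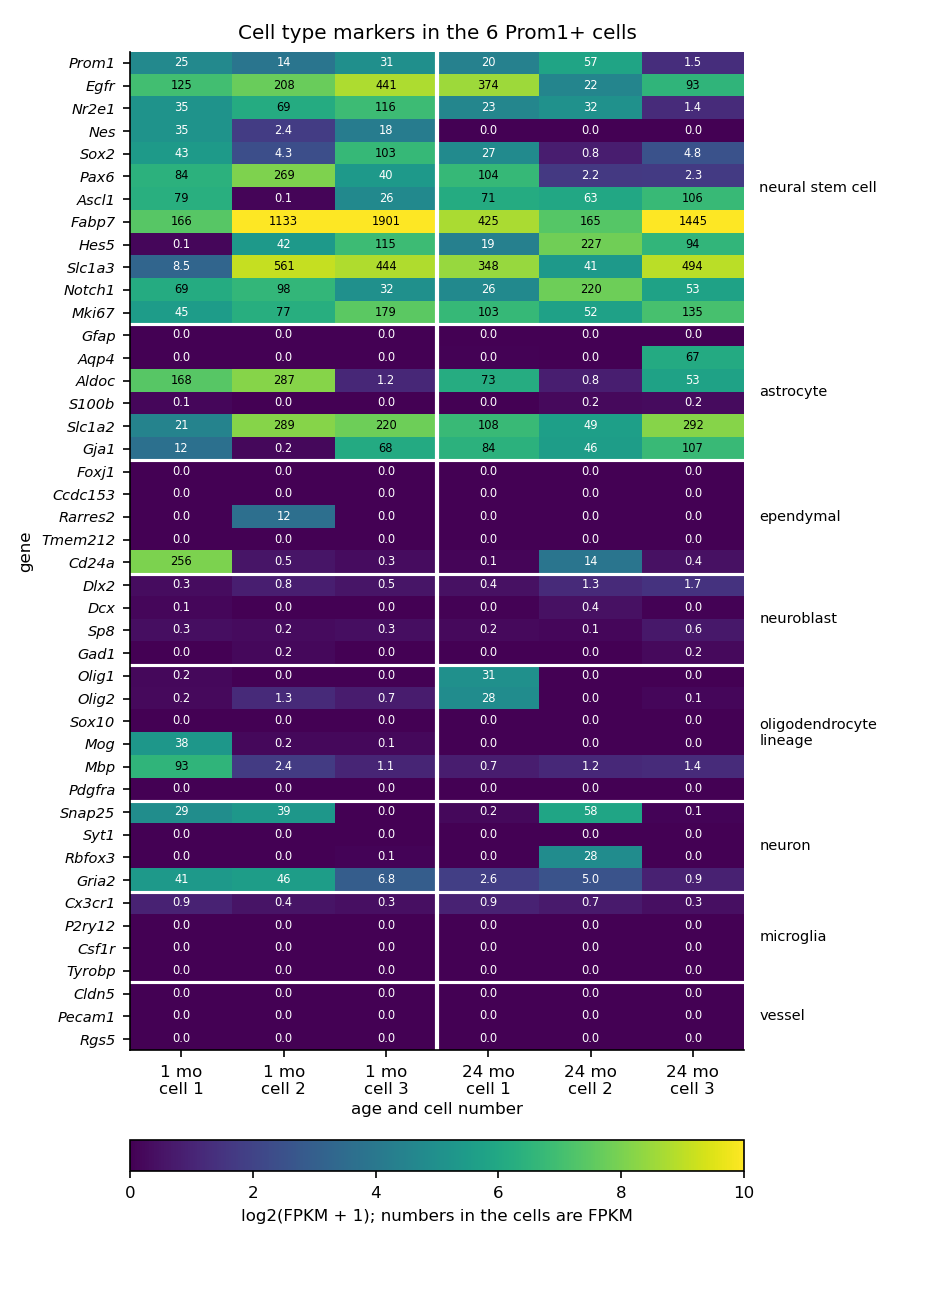
Cell type markers in the 6 Prom1+ cells. Rows are genes grouped by the cell type they mark, columns are cells by age, the colour is log2(FPKM + 1) and the printed number is FPKM. Stem cell genes are high in most cells, with *Nes* at 0 in all 3 cells of 24 months, while the microglial and vessel genes shown are listed below 1 FPKM in all 6.

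An age difference is the mean of log2(FPKM + 1) over the 3 cells of 24 months minus that over the 3 cells of 1 month. A gene was counted as past the limits where the 2 ages did not overlap and the difference was larger than 1. This was so for 284 genes higher at 24 months (4.29% of 6627) and 345 genes lower (5.21%), together 629 (9.49%). The share past the limits in each list below is to be set beside these shares. A difference of means larger than 1 alone, with overlap allowed, was reached by 52.4% of genes, with a median SD between cells of 1.95 on the same scale. How many genes would part in this way between 2 sets of 3 cells of a single age was not tested. Among the 2079 genes above 1 FPKM in all 6 cells, 86 were past the limits higher (4.14%) and 113 lower (5.44%), together 9.57%. At the limit itself, *Spry2* lay just inside at -1.01 and *Stmn1* just outside at -0.99.

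Of the 284 higher genes 22 were listed at 0 in all 3 cells of 1 month, and of the 345 lower genes 29 were at 0 in all 3 cells of 24 months. These stay in the counts, but since a 0 can be a failed estimate no age difference is read from any such gene below. Of the higher genes 79 were above 1 FPKM in no cell of 1 month, and of the lower genes 94 in no cell of 24 months. Each of these is a member only through the 3 cells of the other age, and it drops out when any 1 of those cells is left out, as do *Apc*, *Dkk3*, *Cplx1*, *Emp1*, *Jarid2*, *Suclg2*, *Gabpb2*, *Ift57*, *Cdon*, *Phlpp1* and *Chtf18* and others marked below. The median age difference over all members was -0.08. The median of the longest annotated transcript was 3416 bases for higher genes, 3414 for lower genes and 3208.5 for all members, and protein-coding genes made up 86.6%, 93.9% and 90.3%. By chromosome the share past the limits ran from 5.42% on chromosome 14 to 15.6% on chromosome 3, with 10.9% of 220 members on the X chromosome and 22.7% of 22 members on the mitochondrial genome.

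**Figure D2:**
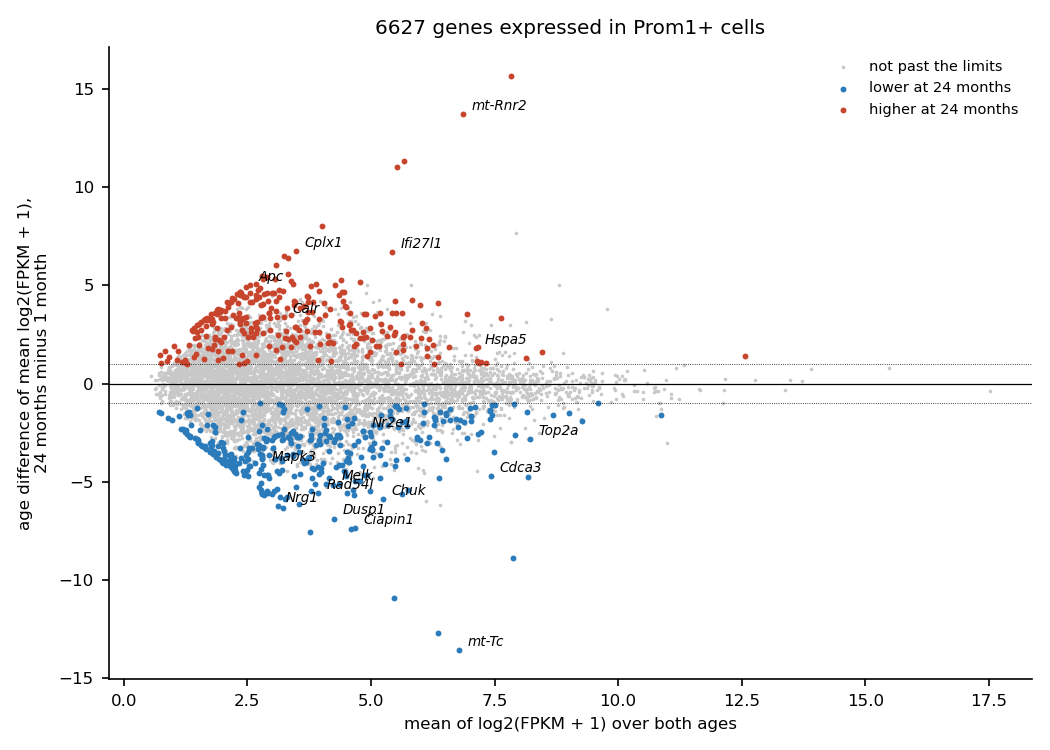
Age difference of each member against its mean level in Prom1+ cells. Each of the 6627 points is a gene, the x axis is the mean of log2(FPKM + 1) over both ages, the y axis is the age difference on the same scale, and dotted lines mark 1 and -1. The 284 genes past the limits higher at 24 months and the 345 lower are spread over the range of levels, and the points farthest from 0 are mostly genes listed at 0 in every cell of an age, from which no difference is read.

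Genes that keep stem cells in an undifferentiated, dividing state were mixed. *Nr2e1* (chromosome 10, 42561963 to 42583632) was at 34.6, 69.3 and 116 FPKM at 1 month and at 23.2, 32.2 and 1.35 at 24 months, so that all 3 older cells lay below all 3 younger ones (difference -2.43), though not after quantile normalization. *Nes*, which encodes the intermediate filament nestin, was at 34.6, 2.44 and 17.6 FPKM at 1 month and was listed at 0 in each cell of 24 months, so that no difference is read from it. *Nfib*, a nuclear factor I gene of quiescent stem cells and glia, was at 316, 174 and 220.1 FPKM against 61.4, 135 and 45.4 (difference -1.65). No other member of the 26 stem cell transcription factors parted the ages.

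Other defining genes overlapped. *Sox2* was at 42.6, 4.28 and 103 FPKM at 1 month and at 26.7, 0.755 and 4.81 at 24 months. *Pax6* was at 83.9, 269 and 39.9 FPKM against 104, 2.15 and 2.26. The 24-month cell 2 was below the younger range for both genes and cell 3 for *Pax6*. *Hes5*, a Notch target, was at 0.139, 41.5 and 115 FPKM at 1 month and at 19.3, 227 and 93.9 at 24 months, and *Slc1a3*, the glutamate transporter GLAST, at 8.496, 561 and 444 against 348, 40.8 and 494. In the list of 15 activated stem cell genes, *Nr2e1* and *Nes* were past the limits (13.3%, against 9.49% of all members), the latter through its zeros. The median difference was -0.68 against -0.08 over all members. It was -0.27 without the 1-month cell 2, -0.37 without the 1-month cell 3, -0.28 without the 24-month cell 2 and -1.03 without the 1-month cell 1.

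Of 90 members among the S and G2/M phase genes, 11 were past the limits and all 11 were lower at 24 months (12.2%, against 9.49% of all members in either direction and 5.21% lower). The median difference of the 90 was -1.02, and 67 of them were below 0. The 53 G2/M genes had 8 past the limits and a median of -1.11, which ran from -1.29 to -0.48 over 13 settings. The 37 S phase genes had 3 past the limits and a median of -0.98. Their median was -0.38 without the 24-month cell 2 and -1.90 without the 24-month cell 3, with 14 lower. Without the 24-month cell 2 the median of the 90 was -0.45, with 12 genes lower and 1 higher past the limits, and without any of the other 5 cells it lay between -1.16 and -1.004. The per-cell median log2(FPKM + 1) of the 90 was 6.34, 6.66 and 6.74 at 1 month and 6.07, 4.78 and 5.90 at 24 months. That of the S phase genes was 4.92, 7.01 and 5.99 against 4.91, 2.99 and 6.42. That of the G2/M genes was 6.87, 6.27 and 7.24 against 6.66, 5.87 and 5.60, so that the ages overlapped for each phase alone.

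*Melk*, a mitotic kinase gene that is also expressed in dividing neural progenitors, was at 70.2, 86.4 and 226 FPKM at 1 month and at 8.15, 0.5896 and 1.22 at 24 months (chromosome 4, 44300876 to 44364675). The ages were far apart, with a difference of -5.14. *Top2a*, whose product untangles sister chromosomes, was at 684, 799.5 and 883 FPKM against 551, 7.37 and 306. The older cells spread widely here, and without the 24-month cell 2 *Top2a* was not past the limits. *Cdca3*, which triggers mitotic entry, was at 768, 827 and 1038 FPKM against 185, 24.99 and 6.96, a difference of -4.69. *Kif11*, the spindle motor Eg5, was at 111, 151 and 203 FPKM against 46.3, 84.7 and 58.7, a smaller difference of -1.28 with close values within each age.

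Genes of the kinetochore, the protein platform that ties chromosomes to the spindle, and of chromosome condensation had 9 of 48 members past the limits (18.8%, against 9.49% of all members), all 9 lower (5.21% of all members), with a median of -1.52. *Ndc80*, the microtubule contact of the kinetochore, was at 116, 250.2 and 105 FPKM at 1 month and at 2.204, 0.393 and 41.9 at 24 months. *Incenp*, the scaffold of the chromosomal passenger complex, was at 16.8, 19.3 and 107 FPKM against 8.36, 0.182 and 0.303. *Smc4*, a condensin subunit, was at 897, 917 and 2047 FPKM against 242, 422 and 326, so that every older cell held less than any younger one. The other 6 were *Mis18a* (listed as *2610039C10Rik*), *Sgol1*, *Casc5*, *Cenph*, *Top2a* and *Pmf1*, with differences of -4.33 to -1.49. Without the 24-month cell 2 the median of the list was -0.69, with 9 genes lower and 2 higher. The per-cell median log2(FPKM + 1) of the list was 6.15, 6.04 and 6.47 at 1 month and 5.23, 2.47 and 6.10 at 24 months, so that the ages overlapped.

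**Figure D3:**
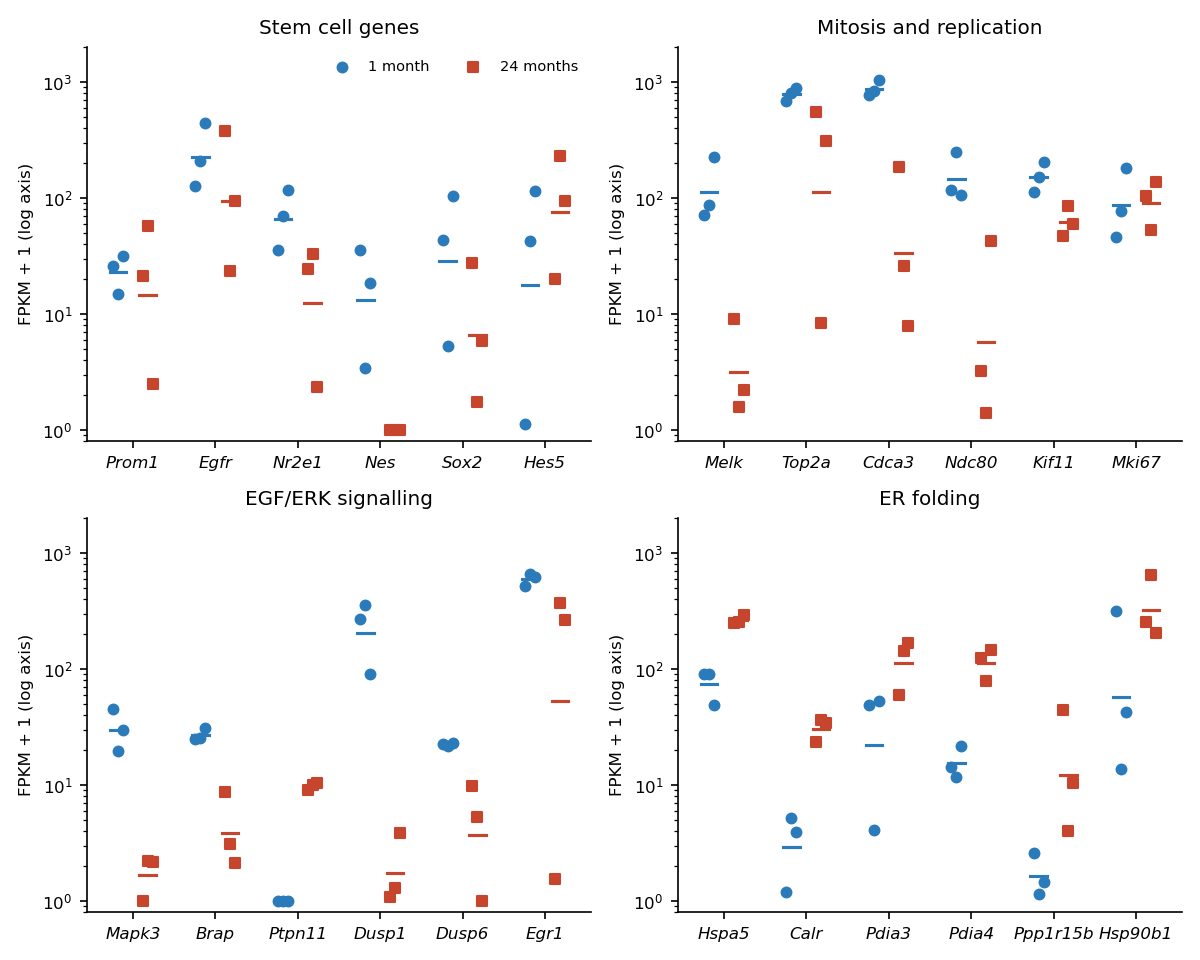
FPKM + 1 on a log axis of 24 genes in the 6 Prom1+ cells. Circles are the 3 cells of 1 month, squares the 3 cells of 24 months, and bars the mean of log2(FPKM + 1) for each age, put back on the FPKM + 1 scale. The ages part for *Melk*, *Mapk3*, *Hspa5* and *Calr* and overlap for *Prom1*, *Egfr*, *Mki67* and *Hsp90b1*.

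With all cells kept, kinases, cyclins and genes of late mitosis had smaller shares past the limits than the kinetochore list. The difference between these lists was not tested, and its size depended on the cells. Without the 24-month cell 1 the shares were close, at 20.8% of mitotic kinases and cyclins and 22.9% of anaphase and cytokinesis genes. The share of the kinetochore list was then 24.4%. Of 24 mitotic kinases and cyclins *Melk* alone was past the limits (4.17%, against 9.49% of all members). The list median was -1.08, and ran from -1.52 to -0.58 over 13 settings. Without the 1-month cell 2, or without the 24-month cell 1, 5 of the 24 were lower. *Cdk1* was at 177, 582 and 304 FPKM at 1 month and at 57.1, 359.6 and 6.504 at 24 months, and *Ccnb1* at 219, 40.2 and 16.1 against 243, 70.7 and 0.932, so that both overlapped. Anaphase and cytokinesis genes had 3 of 36 past the limits (8.33%, against 9.49% of all members), all lower (*Spag5*, *Fzr1* and *Kif11*). Without the 24-month cell 1, 7 were lower and 1 higher of 35. *Fzr1*, an activator of the anaphase-promoting complex, was at 36.2, 8.39 and 24.9 FPKM against 0.08104, 0 and 0. Neither *Fzr1* nor *Spag5* was past the limits without any 1 of the 1-month cells.

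At the start of the cycle the members went both ways. *E2f1*, which drives genes of S phase, was at 13.2, 90.3 and 53.7 FPKM at 1 month and at 0.234, 0 and 0 at 24 months, and was not past the limits without any 1 of the 1-month cells. Its dimer partner gene *Tfdp2* was higher, at 4.93, 0.0378 and 27.9 FPKM against 78.4, 118 and 70.2, and so was *Mybl2*, at low levels of at most 0.761 against 1.04 to 2.69 FPKM, though *Mybl2* was not past the limits under 5 of 13 settings. These 3 were the genes past the limits among 24 regulators of G1 and S phase (12.5%). The list median was -0.89, but 0.02 without the 1-month cell 1, -0.50 without the 1-month cell 2 and -0.27 without the 24-month cell 1. Among 42 replication and licensing genes *Orc2* and *Cdc7* were lower and *Mcm2* higher (7.14%, against 9.49% of all members). *Cdc7*, the kinase that fires origins, was at 203, 146 and 109.5 FPKM against 47, 21.3 and 65.6, and *Mcm2*, a subunit of the replicative helicase, at 31.5, 26.3 and 0 against 66.1, 98.99 and 38.05, no longer past the limits after scaling without mitochondrial genes.

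Of 22 nucleotide synthesis genes *Hprt*, a purine salvage enzyme, was lower, at 72.2, 333 and 143 FPKM against 3.14, 20.99 and 0.2804, and *Atic*, of purine synthesis, was higher, at 1.16 to 3.297 against 3.76 to 11.2 FPKM, though not after scaling without mitochondrial genes. Together they made up 9.09% of the list, against 9.49% of all members. The list median was -0.997, or -0.64 without the 24-month cell 2. Of 35 repair genes 3 were lower (8.57%, against 9.49% of all members), among them *Rad54l* and *Brca1* of homologous recombination. *Rad54l* was at 98.1, 130.4 and 88.6 FPKM at 1 month and at 0.216, 1.44 and 2.69 at 24 months and *Brca1* at 2.36, 9.16 and 90.7 against 0.0829, 0 and 0.534. *Brca1* was not past the limits without any 1 of the 1-month cells.

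The promoters of *Top2a* and *Cdca3*, lower G2/M genes that carry both motifs, are printed from RefSeq (GRCm38.p6, 250 bases before to 50 after the start), with matches to TTTGAA (the core of the cell cycle homology region, CHR) and to CCAAT in capitals, on either strand.
Top2a, chr11:99024140-99024439, minus strand: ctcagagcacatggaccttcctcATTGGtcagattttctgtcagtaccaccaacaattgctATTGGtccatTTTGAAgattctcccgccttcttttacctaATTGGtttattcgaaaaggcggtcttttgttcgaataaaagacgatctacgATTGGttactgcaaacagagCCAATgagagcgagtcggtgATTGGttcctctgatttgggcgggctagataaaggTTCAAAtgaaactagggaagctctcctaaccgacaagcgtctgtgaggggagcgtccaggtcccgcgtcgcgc
Cdca3, chr6:124829926-124830225, plus strand: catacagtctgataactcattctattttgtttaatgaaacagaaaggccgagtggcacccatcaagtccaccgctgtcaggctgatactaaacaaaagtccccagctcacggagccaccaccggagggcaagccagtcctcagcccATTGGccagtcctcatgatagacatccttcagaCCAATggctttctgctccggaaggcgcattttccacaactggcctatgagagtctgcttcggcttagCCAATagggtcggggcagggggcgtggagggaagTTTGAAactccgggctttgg
The *Top2a* window held 2 matches to TTTGAA and 6 to CCAAT, and the *Cdca3* window 1 and 3. Of the 11 lower cell cycle genes 8 had a promoter in the table, and 6 of these held TTTGAA (75%). Among all 71 of the 90 cell cycle members with a promoter the number was 38 (53.5%), and among all 32851 promoters TTTGAA was found in 17.9% and CCAAT in 37.4%. Matches to the motifs did not overlap in these windows.

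In the pathway from the EGF receptor to ERK, *Mapk3* (chromosome 7, 126759601 to 126765819), which encodes ERK1, was at 44.1, 18.6 and 28.8 FPKM at 1 month and at 0, 1.21 and 1.15 at 24 months, a difference of -4.14. Every older cell thus lay below every younger one.

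Around Ras, the level of *Nras* overlapped, at 240.3, 258 and 245 FPKM at 1 month and 211, 492 and 239 at 24 months. *Brap*, a Ras-responsive ubiquitin ligase, was at 24.05, 24.5 and 30.1 FPKM against 7.72, 2.11 and 1.13. *Ptpn11*, whose phosphatase SHP2 passes receptor signals to Ras, was listed at 0 in each cell of 1 month, from which no difference is read, and was at 8.13, 9.03 and 9.47 FPKM at 24 months. Of the 20 members of the cascade 4 were past the limits (20%), among them *Brap*, *Ptpn11* and *Mapk3*. The kinase gene *Braf* overlapped, with the 24-month cell 1 at 0.0447 FPKM and the other 5 cells between 23.2 and 64.3.

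Among 8 members of the receptor and ligand list, *Ntrk2* and *Nrg1* were past the limits (25%, against 9.49% of all members). *Nrg1* is counted through zeros at 24 months from which no difference is read. *Nrg1*, the ErbB ligand neuregulin 1, was at 95.7, 32.6 and 127 FPKM at 1 month and was listed at 0 in each cell of 24 months. *Ntrk2*, the BDNF receptor, was at 185, 71.5 and 79.6 FPKM against 51.99, 2.84 and 4.43. *Fgfr1*, *Fgfr2* and *Fgfr3* overlapped between the ages.

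ERK target and feedback genes had 4 of 13 members past the limits (30.8%, against 9.49% of all members), all lower (5.21% of all members), and a median of -1.73. *Dusp1*, a phosphatase that inactivates MAP kinases, was at 271, 355 and 88.9 FPKM at 1 month and at 0.0795, 0.293 and 2.896 at 24 months, a difference of -6.87. *Dusp6*, the phosphatase that acts on ERK, was at 21.4, 20.8 and 22 FPKM against 8.82, 4.34 and 0. *Spry2*, a feedback inhibitor of receptor signalling, was at 839, 1963 and 802 FPKM against 427, 656 and 580.4, close to the limit. It was not past the limits without the 24-month cell 1 or the 1-month cell 2, nor with quantile normalization or medians.

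The remaining member, *Egr1*, was at 519, 659.6 and 624 FPKM at 1 month and at 0.552, 372 and 263 at 24 months, so that most of its difference came from the 24-month cell 1, without which it was not past the limits. That cell also held 0.597 FPKM of *Fos*, 0.162 of *Jun*, 0.105 of *Jund* and 0 of *Ier2*, against 121 to 2523, 156 to 947, 33.3 to 133 and 9.12 to 452 in the other 5 cells. Without it the median of the ERK list was 0.01, with 1 higher and 2 lower of 12 members (-2.72 without the 24-month cell 2), and that of the 11 immediate early genes, which dissociation of tissue is also known to induce, moved from -1.34 to 0.96. *Dusp6* and *Dusp1* stayed lower without it.

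**Figure D4:**
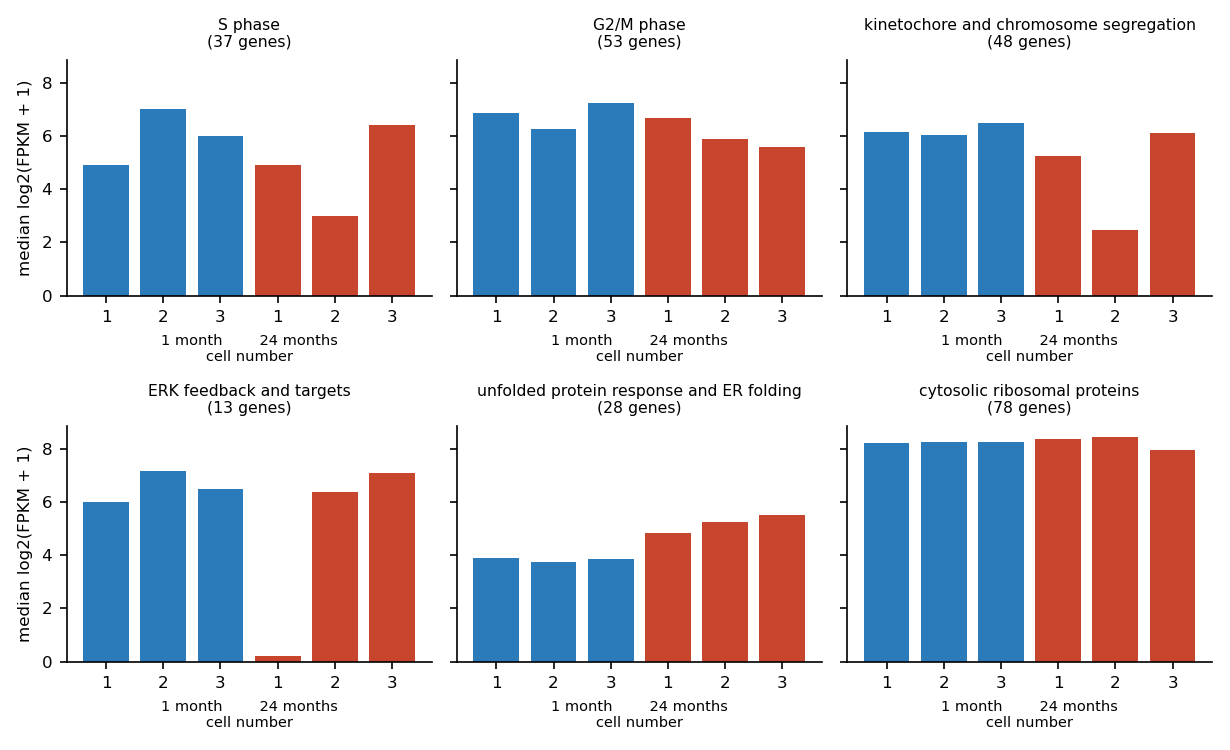
Level of 6 gene lists in each Prom1+ cell. Bars are the median of log2(FPKM + 1) over the members of a list, blue for the 3 cells of 1 month and red for the 3 cells of 24 months, without error bars since each bar is a single cell. The low value of the ERK list belongs to the 24-month cell 1 (0.22), the low S phase and kinetochore values to the 24-month cell 2 (2.99 and 2.47), and the unfolded protein response list is higher in all 3 older cells. In each of the other lists shown, the S phase, G2/M and kinetochore lists among them, the ages overlap.

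The unfolded protein response and protein folding in the endoplasmic reticulum (ER) formed a list with a median of 0.80, with 5 of 28 members past the limits (17.9%, against 9.49% of all members), all 5 higher at 24 months (4.29% of all members). The per-cell median of the list was 3.88, 3.74 and 3.87 on the log2(FPKM + 1) scale at 1 month and 4.82, 5.25 and 5.501 at 24 months. *Hspa5*, the ER chaperone BiP, was at 90.1, 90.2 and 48.1 FPKM against 246, 251 and 292, with close values among the older cells (difference 1.83). *Calr*, a lectin chaperone that buffers calcium, was at 0.201, 4.25 and 2.97 FPKM against 22.4, 35.2 and 33.2 (difference 3.39).

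*Pdia4* and *Pdia3*, disulfide isomerases of the ER, were higher as well. *Pdia4* was at 13.4, 10.7 and 20.7 FPKM at 1 month and at 123, 77.99 and 146 at 24 months (difference 2.87), and *Pdia3* at 47.6, 3.095 and 52.3 against 58.2, 143 and 168 (difference 2.36). *Ppp1r15b*, a regulatory subunit of the phosphatase that restores translation after stress, was at 1.604, 0.161 and 0.462 FPKM against 43.2, 2.98 and 9.48. *Hsp90b1* (GRP94) overlapped, at 315, 12.8 and 41.5 FPKM against 253, 647 and 203, as did *Canx*, *P4hb*, *Pdia6* and *Hyou1*. The transcription factor gene *Atf4* was at 144, 153 and 126 FPKM against 9.71, 309.8 and 0.521, and *Xbp1*, not a member, was at 0 in all 3 younger cells and at 0.205, 69.3 and 118 in the older ones. The list median stayed positive under all 13 alternative settings, between 0.42 without the 24-month cell 3 and 1.34 without the 24-month cell 2.

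The promoters of *Hspa5* and *Calr* are shown because both carry the ER stress response element, the letters CCAAT and CCACG with any 9 bases between them, searched on both strands and given in capitals. Each match also holds a match to CCAAT alone.
Hspa5, chr2:34771840-34772139, plus strand: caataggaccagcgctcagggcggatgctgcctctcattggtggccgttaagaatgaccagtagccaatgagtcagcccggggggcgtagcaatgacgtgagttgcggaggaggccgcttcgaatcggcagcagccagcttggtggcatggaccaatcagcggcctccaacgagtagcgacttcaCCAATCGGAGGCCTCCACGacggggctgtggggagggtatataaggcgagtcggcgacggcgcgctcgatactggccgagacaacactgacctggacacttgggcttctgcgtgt
Calr, chr8:84846882-84847181, minus strand: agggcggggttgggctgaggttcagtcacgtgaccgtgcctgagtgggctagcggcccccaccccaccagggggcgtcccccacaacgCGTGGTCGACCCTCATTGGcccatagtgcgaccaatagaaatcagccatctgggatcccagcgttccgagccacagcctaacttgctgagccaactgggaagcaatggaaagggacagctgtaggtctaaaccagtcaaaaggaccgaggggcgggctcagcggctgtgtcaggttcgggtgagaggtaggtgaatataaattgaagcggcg
The match covered bases 186 to 204 of the *Hspa5* window and, on the opposite strand, bases 89 to 107 of the *Calr* window, counted from 1 at the 5′ end. The element was found in 7 of the 21 list members with a promoter in the table (33.3%) and in 39 of the 32851 promoters searched (0.119%). Members were again counted per gene and the background per promoter. The windows of *Pdia3* and *Pdia4* did not hold these letters.

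Of 31 cytosolic heat shock and chaperone genes 3 were past the limits (9.68%), all lower, *Ahsa1*, *Stub1* and *Cct4*. *Stub1*, a chaperone-linked ubiquitin ligase, was at 141, 70.5 and 99.8 FPKM at 1 month and at 51.6, 14.6 and 22.4 at 24 months. Of 43 ubiquitin and proteasome genes *Psmb7* was lower and *Psma2* higher, both subunits of the proteasome core, *Psma2* not after scaling without mitochondrial genes (4.65% of the list), and the median was -0.64, or -0.34 without the 24-month cell 3. Of 35 autophagy and lysosome genes *Atg7* and *Atg12* were higher (5.71%), both of the conjugation system that builds the autophagosome. *Atg7* was at 0, 0.766 and 0.132 FPKM against 10.03, 4.487 and 1.006, and was not past the limits under 5 of 13 settings, those without any 1 of the 24-month cells among them. *Atg12* was at 55.7, 0 and 29.04 FPKM against 102, 74.3 and 75.4.

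**Figure D5:**
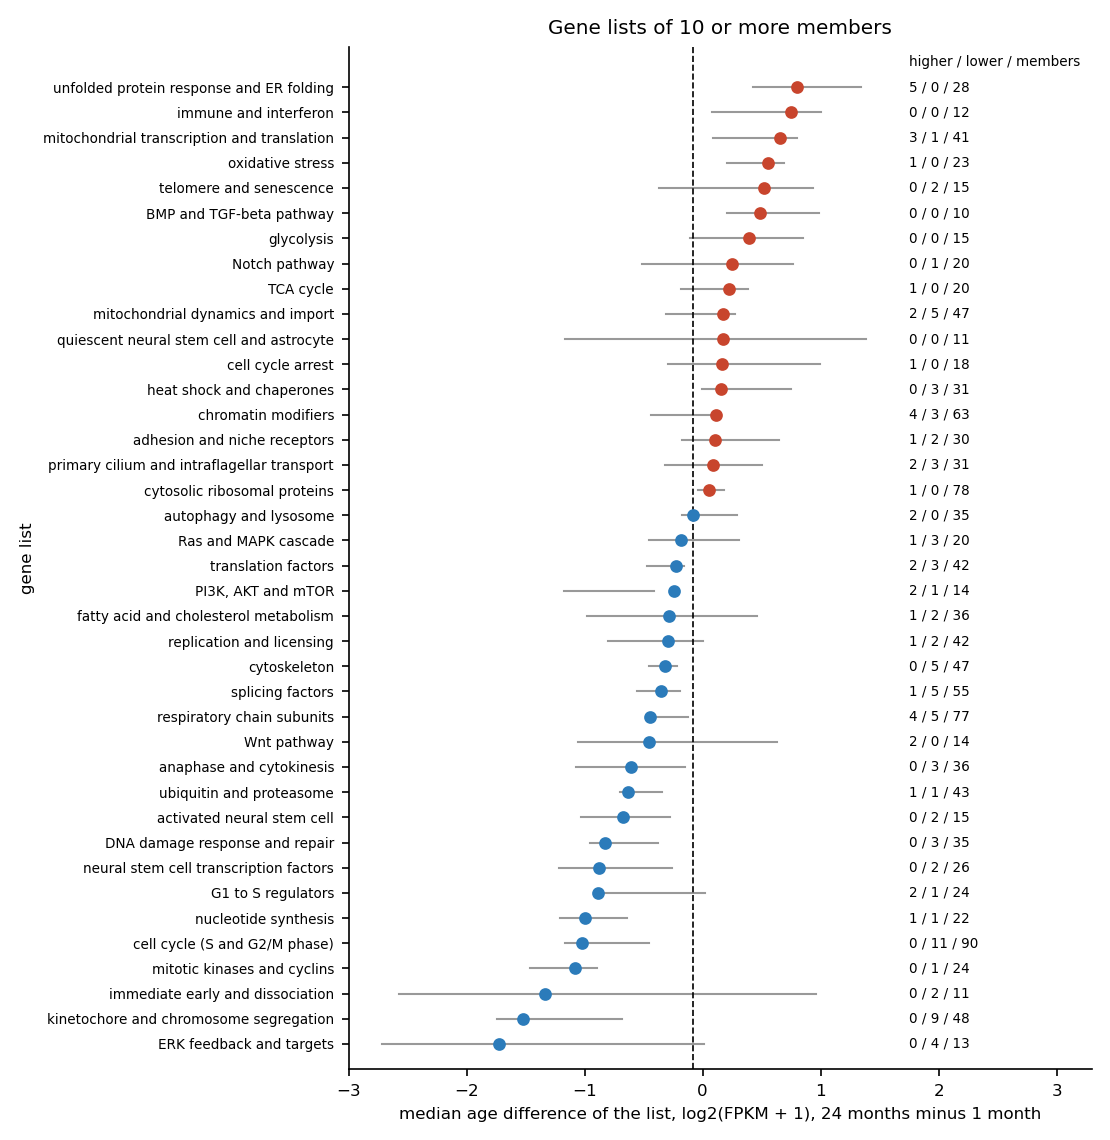
Median age difference of the gene lists with 10 or more members. Points are medians of the difference of mean log2(FPKM + 1), 24 months minus 1 month, red above 0 and blue below, grey lines span the medians obtained when each of the 6 cells is left out in turn, the dashed line is the median of all 6627 members (-0.08), and the numbers at the right count members higher and lower past the limits and all members. Kinetochore and cell cycle lists stay below 0 and the unfolded protein response list above 0 whichever cell is left out, whereas the line of the ERK list reaches 0.01.

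Mitochondrial genes went both ways, as did all members. The mitochondrial genome held 35.3%, 26.4% and 24.6% of the summed FPKM in cells of 1 month and 31.7%, 13.5% and 21.8% in those of 24 months. Of 77 nuclear genes of respiratory chain subunits, 4 were higher and 5 lower past the limits (11.7%). This was near the 9.49% of all members, of which 4.29% were higher and 5.21% lower. The list median was -0.44, and it was -0.13 without the 24-month cell 3, with 8 higher and 7 lower. *Uqcrq*, a small subunit of complex III, was at 832, 396 and 644 FPKM at 1 month and at 143, 88.8 and 70.3 at 24 months. By contrast *Uqcrc2*, a core subunit of the same complex, was at 75.4, 116 and 111 against 211, 228 and 189. *Uqcrc2* was not past the limits without the 1-month cell 1, with medians or after scaling without mitochondrial genes. *Uqcrb*, *Ndufa9* and *Ndufs4* were higher too, and *Ndufv3*, *Ndufa1*, *Cyc1* and *Atp5h* lower. *Ndufa9* was not past the limits after scaling without mitochondrial genes, nor *Ndufs4* with medians or without the 1-month cell 3, nor *Cyc1* with quantile normalization, with medians or without the 24-month cell 3, which held 0.307 FPKM against 88.6 to 246 in the other 5 cells. Mitochondrial transcription and translation genes had 3 of 41 higher (*Mrps7*, *Mrpl3* and *Gabpb2*) and 1 lower (*Mrpl9*), with a median of 0.65, which was 0.09 without the 24-month cell 1 and 0.40 without the 1-month cell 2. *Mrpl3* was past the limits under 9 of 13 settings, and not without the 1-month cell 3.

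Among 47 genes of mitochondrial dynamics and import, 2 were higher and 5 lower (14.9%, against 9.49% of all members), of which *Atp13a2* encodes a lysosomal transporter. *Timm23*, the channel of the inner membrane, was at 37.5, 15.7 and 88.3 FPKM at 1 month and at 195, 127 and 133 at 24 months. Its partner *Timm17a* was at 15.4, 30.3 and 15.02 FPKM against 7.09, 0.728 and 0.402. *Prdx4*, a peroxidase of the ER, was the member of 23 oxidative stress genes past the limits, at 69.7, 26.6 and 0 FPKM against 89.2, 308 and 119. *Suclg2*, of the TCA cycle, was higher as well, and none of 15 glycolysis genes was past the limits.

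Ribosomal protein genes had few members past the limits. Of 78 cytosolic ribosomal protein genes *Rps19* was past the limits (1.28%, against 9.49% of all members). It was at 67.2, 153 and 82.6 FPKM against 181, 216 and 239, and was not past the limits without the 1-month cell 1. The list median of 0.06 changed sign under 2 of 13 settings. Translation factors had 2 of 42 higher and 3 lower (11.9%). *Eef2k*, the kinase that slows elongation, was at 1.94, 0 and 4.03 FPKM at 1 month and at 39.4, 71.9 and 154 at 24 months, and *Eif2b4*, a subunit of the exchange factor of initiation, at 131, 197 and 28.8 against 0.509, 0.156 and 4.16. Among 55 splicing factors 5 were lower and *Sf3b1* was higher (10.9%), at 4.88, 8.38 and 5.68 FPKM against 36.1, 96.1 and 66.2.

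Chromatin genes also went both ways, with 4 of 63 higher and 3 lower (11.1%), near the 9.49% of all members. *Ezh2*, the methyltransferase of Polycomb complex 2, was at 237, 297 and 290.0 FPKM at 1 month and at 166, 111 and 61.8 at 24 months, a difference of -1.38. *Jarid2*, a cofactor of the same complex, was at 0.939, 0 and 0.0729 FPKM against 237, 2.11 and 53.04. The histone deacetylase gene *Hdac2* and the demethylase gene *Kdm6a* were lower, *Kdm6a* not with TPM or quantile normalization. *Smarca5*, *Smarca2* and *Smarcd2*, subunits of chromatin remodelling complexes, were higher, with *Smarca2* at 29.9, 71.2 and 0 FPKM against 91.7, 269 and 153.

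In the Wnt list of 14 members 2 were higher (14.3%), both of them above 1 FPKM at 24 months alone and neither past the limits without any 1 of the 24-month cells. *Apc*, part of the complex that degrades beta-catenin, was at 0.0611, 0.0294 and 0 FPKM at 1 month and at 14.8, 59.2 and 39.8 at 24 months. *Dkk3*, a secreted dickkopf family protein, was at 0.0941, 0.0808 and 0.139 FPKM against 40.2, 109.9 and 168. The Notch list had 1 of 20 members past the limits (5%), the gamma-secretase subunit *Psenen*, lower but not with quantile normalization. The Hedgehog list had 1 of 6 (16.7%), the co-receptor *Cdon*, lower. None of 10 BMP and TGF-beta genes was past the limits. In the list of PI3K, AKT and mTOR genes *Pik3ca* and *Akt2* were higher and *Phlpp1*, a phosphatase that acts on AKT, lower. These were 3 of 14 members (21.4%, against 9.49% of all members). *Akt2* was not past the limits without the 24-month cell 2, nor *Phlpp1* without any 1 of the 1-month cells.

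Cilium genes had 2 of 31 higher and 3 lower (16.1%, against 9.49% of all members). *Ift57*, of the intraflagellar transport particle, was at 138, 205 and 20.03 FPKM at 1 month and at 0.108, 0 and 0 at 24 months, and *Bbs9* and *Kifap3* were lower too. *Ift122*, of the retrograde particle, was at 0.773, 0.665 and 2.77 FPKM against 9.42, 17.4 and 19.6, and *B9d2*, of the transition zone, was higher. Of 18 genes of cell cycle arrest *Apc* was the member past the limits. The inhibitor gene *Cdkn1b* was between 314 and 590 FPKM in all 6 cells. *Cdkn1a* (p21), not a member, was at 0 in the 3 younger cells and at 48.8, 0 and 261 FPKM in the older ones, and *Cdkn2a* (p16) was listed at 0 in all 6. None of 12 immune and interferon members was past the limits.

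The 12 named protein-coding genes with the largest difference in each direction were of varied function. Those lower were *Ciapin1*, *Dusp1*, *Ift57*, *Nrg1*, *Cdk5rap3*, *Chuk*, *Ddx56*, *Chtf18*, *Alkbh6*, *Ncald*, *Jmjd6* and *D17H6S53E*, from -7.34 to -5.61. *Nrg1* is in this list by the rule, through zeros from which no difference is read. Besides it, *Ift57*, *Cdk5rap3*, *Ddx56*, *Chtf18*, *Jmjd6* and *D17H6S53E* were above 1 FPKM at 1 month alone and are lost without any 1 of the 1-month cells. *Ciapin1*, needed to assemble cytosolic iron-sulfur proteins, was at 198, 561 and 314 FPKM at 1 month and at 6.203, 0 and 0.147 at 24 months. *Chuk*, the kinase IKK-alpha, was at 203, 268 and 445 FPKM against 1.55, 5.19 and 6.46. *Chtf18*, of a clamp loader that acts in sister chromatid cohesion, was at 63.5, 33.4 and 131 FPKM against 0, 0.779 and 0.

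Those higher were *Cplx1*, *Ifi27l1*, *Lxn*, *Dkk3*, *Wdr33*, *Rabac1*, *Emp1*, *Abhd14a*, *Hddc2*, *Ccdc77*, *Ormdl2* and *Gstm1*, from 6.77 to 5.16. *Cplx1*, *Lxn*, *Dkk3*, *Wdr33*, *Rabac1*, *Emp1*, *Abhd14a* and *Hddc2* were above 1 FPKM at 24 months alone and are lost without any 1 of the 24-month cells. *Lxn*, the carboxypeptidase inhibitor latexin, was listed at 0 in each cell of 1 month, from which no difference is read, and was at 114, 108 and 57.1 FPKM at 24 months. *Cplx1*, a complexin of vesicle release, was at 0, 0.128 and 0.1105 FPKM against 41.6, 242 and 156. *Emp1*, an epithelial membrane protein, was at 0, 0 and 0.0871 FPKM against 52.01, 75.7 and 24.1. *Gstm1*, a glutathione transferase, was at 0.137, 16.2 and 4.04 FPKM against 195, 82.8 and 273.

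Larger differences belonged to non-coding RNA genes and clone-named genes. *mt-Rnr2*, the large mitochondrial ribosomal RNA, was listed at 0 in all 3 cells of 1 month, at 16031, 9645 and 15711 FPKM in those of 24 months, and between 9645 and 24783 in all 19 cells of the series other than those 3. The other ribosomal RNA, *mt-Rnr1*, was between 1064 and 2462 FPKM in all 6 cells. The transfer RNA genes *mt-Tc*, *mt-Tn* and *mt-Ta* were between 587 and 21294 FPKM at 1 month and at 0 in every cell of 24 months. The clone-named *AL646020.1* was at 0 in the younger cells and at 38436, 56698 and 65877 FPKM in the older ones. No age difference is read from these zeros. Scaling to the sum of genes outside the mitochondrial genome moved the median of all members from -0.08 to -0.19, with 250 genes higher and 393 lower past the limits.

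The genes past the limits in Prom1+ cells were looked up in the other cells, which are separate cells of the same ages. In Dlx2+/Dcx+ cells (5 of 1 month, 4 of 24 months), 2.26% of 7466 genes were past the same limits. Of 306 lower Prom1+ genes that could be compared there, 7 were lower (2.29%, background 1.54%) and 1 higher, and of 222 higher genes 2 were higher (0.901%, background 0.723%) and 2 lower. In Gfap+ cells (2 of 1 month, 5 of 24 months), where 8.23% of 6256 genes were past the limits, 11 of 179 higher genes were higher (6.15%, background 4.49%) and 7 lower, and of 222 lower genes 7 were lower (3.15%, background 3.74%) and 6 higher. These shares are close to the background of each subpopulation.

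Single genes were looked up in the Dlx2+/Dcx+ cells as well. *Melk* was at a median of 44.6 FPKM in Dlx2+/Dcx+ cells of 1 month (0.727 to 493) and 0.524 in those of 24 months (0 to 7.76), the same order as in Prom1+ cells, with overlap. *Mapk3* was at a median of 0 in Dlx2+/Dcx+ cells of 1 month (0 to 38.97) and 22.1 in those of 24 months (0.352 to 73.4), the opposite order to Prom1+ cells, with overlap. *Hspa5* was at a median of 87.5 FPKM in Dlx2+/Dcx+ cells of 1 month (21.7 to 371) and 11.8 in those of 24 months (0 to 69.3), again the opposite order to Prom1+ cells, with overlap. Differences between the subpopulations were not tested.

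In the tissue, 3 samples of 18 months were compared with 3 of 3 weeks by limma on log2(FPKM + 1) over 12287 genes, and 479 (3.9%) were called at an unadjusted p under 0.05 with a log2 fold change beyond 1, 225 higher (1.83%) and 254 lower (2.07%), of which 279 (2.27%) passed with the adjusted p. Of the 629 Prom1+ genes 467 could be tested, and 16 were called (3.43%). Of the 267 lower in Prom1+ cells, 7 were lower and 5 higher in the tissue, and of the 200 higher, 2 were higher and 2 lower. The tissue ages are not those of the cells, and in tissue fewer cells of a type and less RNA per cell cannot be told apart. The study gives as many mice per age as there are tissue samples, while the labels do not tie a sample to an animal, so the p-values measure the spread between these samples.

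The tissue genes lower with age that were also lower in Prom1+ cells included *Cdca3*, *Top2a* and *Ezh2*. *Cdca3* was at 10.4 ± 0.11 FPKM (SD, n = 3) at 3 weeks and 2.20 ± 0.46 at 18 months, a log2 fold change of -1.85 (SE 0.15, limma adjusted p = 0.0040). *Top2a* was at 21.3 ± 3.4 FPKM against 5.93 ± 0.87 (SD, n = 3), with -1.68 (SE 0.17, limma adjusted p = 0.0095). *Ezh2* was at 17.0 ± 1.8 FPKM against 8.004 ± 1.2 (SD, n = 3), with -1.0 (SE 0.15, limma adjusted p = 0.025). *Mpzl1* and *Vash1* were lower in both as well, and *Pmf1* and *Nfib* were called without passing the adjusted p.

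Some genes went opposite ways. *Mcm2*, higher in older Prom1+ cells, was at 9.47 ± 0.38 FPKM at 3 weeks and 3.80 ± 0.43 at 18 months in tissue (SD, n = 3; limma adjusted p = 0.011). *Tubb5*, a tubulin gene at 2378, 3368 and 4387 FPKM in younger and 1755, 427 and 1643 in older Prom1+ cells, lower there but not past the limits without the 24-month cell 2, was at 53.5 ± 5.7 FPKM against 196 ± 13 in tissue (SD, n = 3; limma adjusted p = 0.0020). *Mapk3* was not called in tissue, at 198 ± 50 FPKM against 186 ± 21 (SD, n = 3), with a log2 fold change of -0.07 (SE 0.22, limma adjusted p = 0.88). *Hspa5* was at 78.2 ± 22 FPKM against 94.4 ± 33 (SD, n = 3), with 0.25 (SE 0.33, limma adjusted p = 0.68). *Melk* was at 2.51 ± 0.14 FPKM against 1.498 ± 0.078 (SD, n = 3), with -0.49 (SE 0.10, limma adjusted p = 0.057).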

How the data were processed

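The authors deposited FPKM values for the single cells and for the tissue, 1 column per cell or sample, and no counts. The submitters' notes name GRCm38, HISAT2, StringTie and featureCounts, without versions. No scaling between cells is stated. Since FPKM is a share of each cell's total and Smart-seq2 amplifies without molecular identifiers, abundant short RNA shifts all other values.

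The rule for members was more than 1 FPKM in 3 or more of 6 cells. Members, lists and limits were chosen with earlier results of these data known. Differences were taken on log2(FPKM + 1), which understates low genes. Cells were not tested, and tissue was tested with limma 3.58.1 (trend, Benjamini-Hochberg). Both steps were run on simulated data with set changes larger than the limits. For the cells the simulated spread was smaller than the real one and false calls were not counted. That run therefore does not show how many unchanged genes would pass. The S and G2/M lists come from Seurat 5.3.0 and 47 lists were written by hand. Genes named are *Prom1*, *Egfr* and *Nr2e1*, those of the study's text on these cells, the 12 largest differences each way, up to 4 list members each way and those defining a pathway, markers, and sex-linked and most abundant genes. *Stmn1* and the genes tested in the tissue were named after their values were seen. Values of some genes are not reported here. Symbols are as listed. Of 37974 identifiers 32910 matched GENCODE, whose coordinates are used because the listed positions are not those of GRCm38. Python 3.11.15 was used.

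Alternatives were a pseudocount of 0.1, no filter, a mean above 5 FPKM, TPM, scaling without mitochondrial genes, quantile normalization, medians, S or G2/M genes alone, the adjusted p, the replicate block, and each cell or sample left out.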

Additional observations from a re-analysis of the deposited data

Results flagged for a closer look

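For 2 of the 129 named genes past the limits in Prom1+ cells, the Gfap+ cells of the 2 ages parted in the opposite direction. The difference between the subpopulations was not tested, and the Gfap+ group of 1 month holds 2 cells. Among all 6256 genes compared in Gfap+ cells 8.23% were past the limits, and of the genes past them in Prom1+ cells 7 of 179 higher (3.91%) and 6 of 222 lower (2.7%) went the opposite way there. *Abhd14a*, which encodes a hydrolase domain protein, was at 0, 0 and 0.476 FPKM in Prom1+ cells of 1 month and at 21.6, 27.3 and 180.3 in those of 24 months (difference 5.42), and its place past the limits there was lost without any 1 of the 24-month cells. In Gfap+ cells it was at 384 to 447 FPKM at 1 month and 0 to 80.5 at 24 months, with a median of 0.53 (difference -7.03). *Atp13a2*, which encodes a lysosomal polyamine transporter, was at 33.2, 46.3 and 46.8 FPKM in Prom1+ cells of 1 month and at 1.26, 0.644 and 0.672 in those of 24 months (difference -4.54). In Gfap+ cells it was at most 0.124 FPKM at 1 month and 0.244 to 108 at 24 months with a median of 1.93 (difference 2.31), so that these ages part by values under 1 FPKM.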

How the results depend on the processing

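The 629 genes past the limits were 595 to 814 under the 7 alternatives that kept all 6 cells, and 994 to 1097 when 1 cell was left out, since fewer cells then have to part. Between 518 and 535 of the 629 were among the genes counted with a cell left out. The median of the 90 cell cycle genes was -1.17 to -0.84 with all cells kept, and -1.16 to -0.45 with a cell left out, the last without the 24-month cell 2. Of 129 named genes past the limits 74 stayed so in all 13 settings. No named gene past the limits changed sign. The 16 Prom1+ genes called in the tissue became 27 with a pseudocount of 0.1 (6.23% of all genes called), 26 with TPM (5.66%), 9 with the adjusted p (2.27%) and 14 to 27 with a sample left out, 27 without replicate 1 of 18 months (4.75%). With the replicate number as a block they were 17 (4.11%). Same-numbered tissue samples correlated at -0.10, -0.01 and -0.10 in their deviations, so the numbers do not pair them, and cell numbers pair nothing. Depth limits low values, where 1 FPKM is a few fragments per kilobase.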

Other observations

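Genes of contact with the niche and of the cytoskeleton were not described above. Of 30 adhesion and niche receptor genes *Itgb1*, the integrin beta 1 subunit that binds laminin, was higher at 24 months, at 30.6, 31.6 and 1.05 FPKM against 65.9, 105 and 35.5, though not past the limits without the 1-month cell 3 or after scaling without mitochondrial genes. *Plxnb2*, a semaphorin receptor, was lower, at 28.8, 101 and 31.7 FPKM against 6.602, 1.57 and 16.5, and so was the protocadherin gene *Fat1*. Genes past the limits made up 10% of this list, against 9.49% of all members. Of 47 cytoskeleton genes 5 were past the limits (10.6%, against 9.49% of all members), all lower (5.21% of all members), *Nes*, *Mark3*, *Tubb5*, *Dctn2* and *Tubb2b*. Of these *Nes* is counted through zeros from which no difference is read. *Tubb5* was not past the limits without the 24-month cell 2, nor *Dctn2* under 4 of 13 settings, those without the 1-month cell 3 or the 24-month cell 3 among them.

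Of 36 fatty acid and cholesterol genes *Elovl2*, which elongates polyunsaturated fatty acids, was higher at low levels, at 2.32, 0.941 and 0 FPKM against 2.66, 15.3 and 3.37. It was not past the limits with quantile normalization or with the filter of a mean above 5 FPKM. *Hadha*, of mitochondrial beta-oxidation, was lower at 281, 175 and 162 FPKM against 3.75, 132 and 22.8, and *Insig1*, which retains the sterol sensor, at 729, 368 and 391 against 69.98, 206 and 344. *Insig1* was not past the limits without the 24-month cell 1, nor with quantile normalization or medians. Of 15 telomere and senescence genes *Blm* and *Gar1* were lower (13.3%), *Blm* not without any 1 of the 1-month cells or with the filter of a mean above 5 FPKM. Among 4 oligodendrocyte lineage members and the single neuroblast member none was past the limits, and of 3 neuronal members *Gria2* was lower, at 40.95, 46.3 and 6.77 FPKM against 2.61, 4.97 and 0.871.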
